A study of Mus musculus with 8 samples.

Results

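The interferon regulatory factor (IRF) genes Irf1, Irf2, Irf3, Irf4, Irf5 and Irf8 were described by the accessible chromatin at their loci in mature alveolar macrophages (AMs), the resident macrophages of the airspaces. Peaks of 8 ATAC-seq libraries were merged where they shared a base, and a merged region was taken as a member where it overlapped the body of an IRF gene (mm10, GENCODE M21) or the 20 kb on either side of it. This gave 69 of the 82424 merged regions of the series. AMs were sorted from bronchoalveolar lavage of 9-week-old C57BL/6J mice of both sexes, and the labels do not tie a sex to a library. The KO group (4 libraries, replicates 1_2, 1_3, 2 and 3) came from CD11cCre+ Rxrabfl/fl animals, in which Cre under control of the CD11c gene deletes both floxed retinoid X receptor (RXR) genes, Rxra and Rxrb. The WT group (4 libraries, replicates 1_2, 1_3, 3 and 4) came from CD11cCre- Rxrabfl/fl littermates, which carry the same floxed alleles without Cre. CD11c is expressed by dendritic cells as well as AMs, and loss of the receptors and presence of Cre cannot be told apart in this design. Nothing says whether replicates 1_2 and 1_3 came from separate animals, so p-values measure only the spread between these libraries, which may in part be technical.

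IRF proteins share a DNA-binding domain that reads GAAA repeats, the interferon-stimulated response element (ISRE), and they switch interferon and inflammatory genes on or off. IRF4 and IRF8 bind poorly alone and act largely with the myeloid factor PU.1 on composite ETS-IRF elements, whereas Irf1 and Irf8 are themselves induced by interferon gamma through the gamma-activated site (GAS). RXRs are nuclear receptors that bind DNA as heterodimers, for example with PPARγ on direct repeats spaced by 1 base (DR1).

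The lists held 60363 to 72484 peaks per library, and the background worked back from the peak caller's statistics was 1.12 to 1.86 tags (read ends) per 200 bp in KO and 1.42 to 2.26 in WT. The height of a region in a library was the number of tags in the 200 bp window at the summit of that library's tallest peak there. It was divided by a factor that brought each library to the same median, called scaled tags here. The window could thus lie at a different place of the region in each library. The summit given for a region is that of its peak with the highest −log10 p-value. All windows had the same length, so heights could be set side by side between regions. Of 8 AM marker genes, 7 (Siglecf, Itgax, Marco, Pparg, Fabp4, Mrc1 and Cd68) had a promoter peak in all 8 libraries, and Chil3 had none. The T cell genes Cd3e and Cd3d and the B cell genes Cd79a and Ms4a1 had none. S100a8 (165 scaled tags) of the neutrophil list, Epcam (19.0) of the epithelial list and Flt3 (32.7) and Zbtb46 (97.3) of the dendritic cell list had a promoter peak in all 8 libraries, as did the monocyte gene Ly6c2 (17.4), while Ccr2 had one in 2 libraries, Sftpc, Sftpb, S100a9 and Ly6g in none. Of the 16 regions within Rxra, 1 (chr2:27744546-27744950) had a peak in all 4 WT and in no KO library. Over the genome, 0.820% of the regions found in 2 or more libraries did so. The Rxra region was picked for this pattern, so it is a weak check of the labels, and regions of Rxrb were not looked at.

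Sequences are shown for the 2 regions called by the test and the 3 whose number of libraries with a peak differed by 3 or more between genotypes, since the values below turn on them. They are the 201 bases centred on the summit, read from the plus strand of GRCm38.p6, and the capitals mark matches to the motifs searched. The Irf1 region lies in intron 7 (chr11:53774742-53774942) and holds a TGANTCA (AP-1) match, the Irf2 region in intron 2 (chr8:46804792-46804992) holds DR1 matches, the distal Irf4 region lies upstream of the gene (chr13:30745318-30745518) and holds a GAS match, the proximal Irf4 region lies in intron 1 (chr13:30749834-30750034) without a match, and the Irf5 region lies upstream of the gene (chr6:29524064-29524264) and holds an ETS-IRF match on the minus strand.
Irf1 intron 7: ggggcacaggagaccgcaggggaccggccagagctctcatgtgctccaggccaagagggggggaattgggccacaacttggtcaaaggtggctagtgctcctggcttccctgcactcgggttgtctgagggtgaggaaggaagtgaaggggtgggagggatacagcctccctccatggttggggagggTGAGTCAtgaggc
Irf2 intron 2: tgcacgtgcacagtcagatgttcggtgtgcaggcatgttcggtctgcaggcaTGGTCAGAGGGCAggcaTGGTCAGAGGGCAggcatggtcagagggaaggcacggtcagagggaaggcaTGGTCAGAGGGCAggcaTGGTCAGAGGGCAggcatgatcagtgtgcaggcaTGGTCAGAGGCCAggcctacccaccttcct
Irf4 upstream: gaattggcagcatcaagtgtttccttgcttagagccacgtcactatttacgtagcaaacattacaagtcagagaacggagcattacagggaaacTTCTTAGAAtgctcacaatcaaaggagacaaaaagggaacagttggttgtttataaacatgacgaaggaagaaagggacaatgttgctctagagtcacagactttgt
Irf4 intron 1: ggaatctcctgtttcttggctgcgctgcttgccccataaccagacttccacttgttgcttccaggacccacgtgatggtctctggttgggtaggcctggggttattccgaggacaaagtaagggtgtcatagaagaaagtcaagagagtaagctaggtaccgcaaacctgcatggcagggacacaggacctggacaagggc
Irf5 upstream: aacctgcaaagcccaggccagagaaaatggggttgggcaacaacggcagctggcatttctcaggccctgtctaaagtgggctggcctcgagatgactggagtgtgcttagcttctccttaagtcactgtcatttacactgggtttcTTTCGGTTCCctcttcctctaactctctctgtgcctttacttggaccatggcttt

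The promoters of Irf1, Irf2 and Irf8 are shown because each holds an interferon-type element in the 250 bases before the start in the RefSeq promoter table (GRCm38.p6, plus strand), printed up to the start itself, or for Irf2 up to the earlier GENCODE start. The tallest Irf5 promoter region (chr6:29529032-29529423) also holds an ETS-IRF match in the 201 bases around its summit, and is not shown. The Irf1 promoter (chr11:53769764-53770013) has 1 GAS match, TTCNNNGAA, in capitals. The Irf2 promoter (chr8:46739495-46739731) has an ETS-IRF match (GGAANNGAAA) that overlaps an ISRE match (GAAANNGAAA), and a GAS match after them. The Irf8 promoter (chr8:120736108-120736357) has 2 GAS matches.
Irf1 promoter: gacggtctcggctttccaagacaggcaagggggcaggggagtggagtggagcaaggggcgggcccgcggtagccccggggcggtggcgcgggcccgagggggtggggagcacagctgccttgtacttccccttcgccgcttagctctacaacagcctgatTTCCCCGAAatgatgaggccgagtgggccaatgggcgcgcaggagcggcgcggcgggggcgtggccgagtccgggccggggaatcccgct
Irf2 promoter: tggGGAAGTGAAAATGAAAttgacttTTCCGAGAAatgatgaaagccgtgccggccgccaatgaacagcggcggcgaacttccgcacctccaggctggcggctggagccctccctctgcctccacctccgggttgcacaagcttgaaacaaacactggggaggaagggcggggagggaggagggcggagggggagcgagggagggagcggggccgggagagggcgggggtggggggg
Irf8 promoter: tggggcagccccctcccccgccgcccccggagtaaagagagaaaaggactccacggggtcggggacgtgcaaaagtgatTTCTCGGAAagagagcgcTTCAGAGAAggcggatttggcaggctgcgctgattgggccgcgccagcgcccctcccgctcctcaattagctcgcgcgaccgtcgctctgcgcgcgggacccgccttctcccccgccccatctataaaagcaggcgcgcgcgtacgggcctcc

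Searched on both strands, the ISRE pair occurred in 2.98% of the 32851 promoters of the table over the same 250 bases, the ETS-IRF element in 2.30% and GAS in 7.02%. In the 201 bases around the summits of the 69 IRF regions, the ETS-IRF element occurred in 6 (8.70%), 3 of them at Irf2 and 3 at Irf5, beside 4.0% of all 82424 regions. GAS occurred in 9 IRF regions (13.0%) beside 6.0% of all regions, and the ISRE pair in 3 (4.35%) beside 2.77%. The PU.1 site GAGGAAGT occurred in 7 (10.1%) beside 10.5%, AP-1 in 7 (10.1%) beside 11.7%, the NF-κB site GGGANTTTCC in 1 (1.45%) beside 0.368%, and DR1 (AGGTCANAGGTCA with at most 2 mismatches) in 2 (2.90%) beside 4.14%. ISRE and ETS-IRF matches can overlap, as they do in the Irf2 promoter. The median GC content of these windows was 53.2% in the IRF regions and 50.2% in all regions. A match is a description of the letters and not of a bound site.

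The 6 loci were accessible in every library, with 50 to 55 of the 69 regions carrying a peak. Irf2, whose gene spans 108 kb, had 24 regions, Irf1 had 11, Irf4 and Irf8 had 10 each, Irf5 had 9 and Irf3 had 5. By the position of the summit, 12 regions lay within 1 kb of a start site of the gene, 3 in exons, 24 in introns, 16 upstream and 14 downstream, and 4 of the 30 flanking summits lay at the promoter of another gene. A peak was found in all 8 libraries at 45 of 69 regions (65.2%), beside 57.6% of all merged regions. Of the others, 15 had a peak in 2 to 7 libraries and 9 in 1 library only. No peak means that the q-value threshold of 0.05 was not reached, not that the chromatin was closed.

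**Figure D1:**
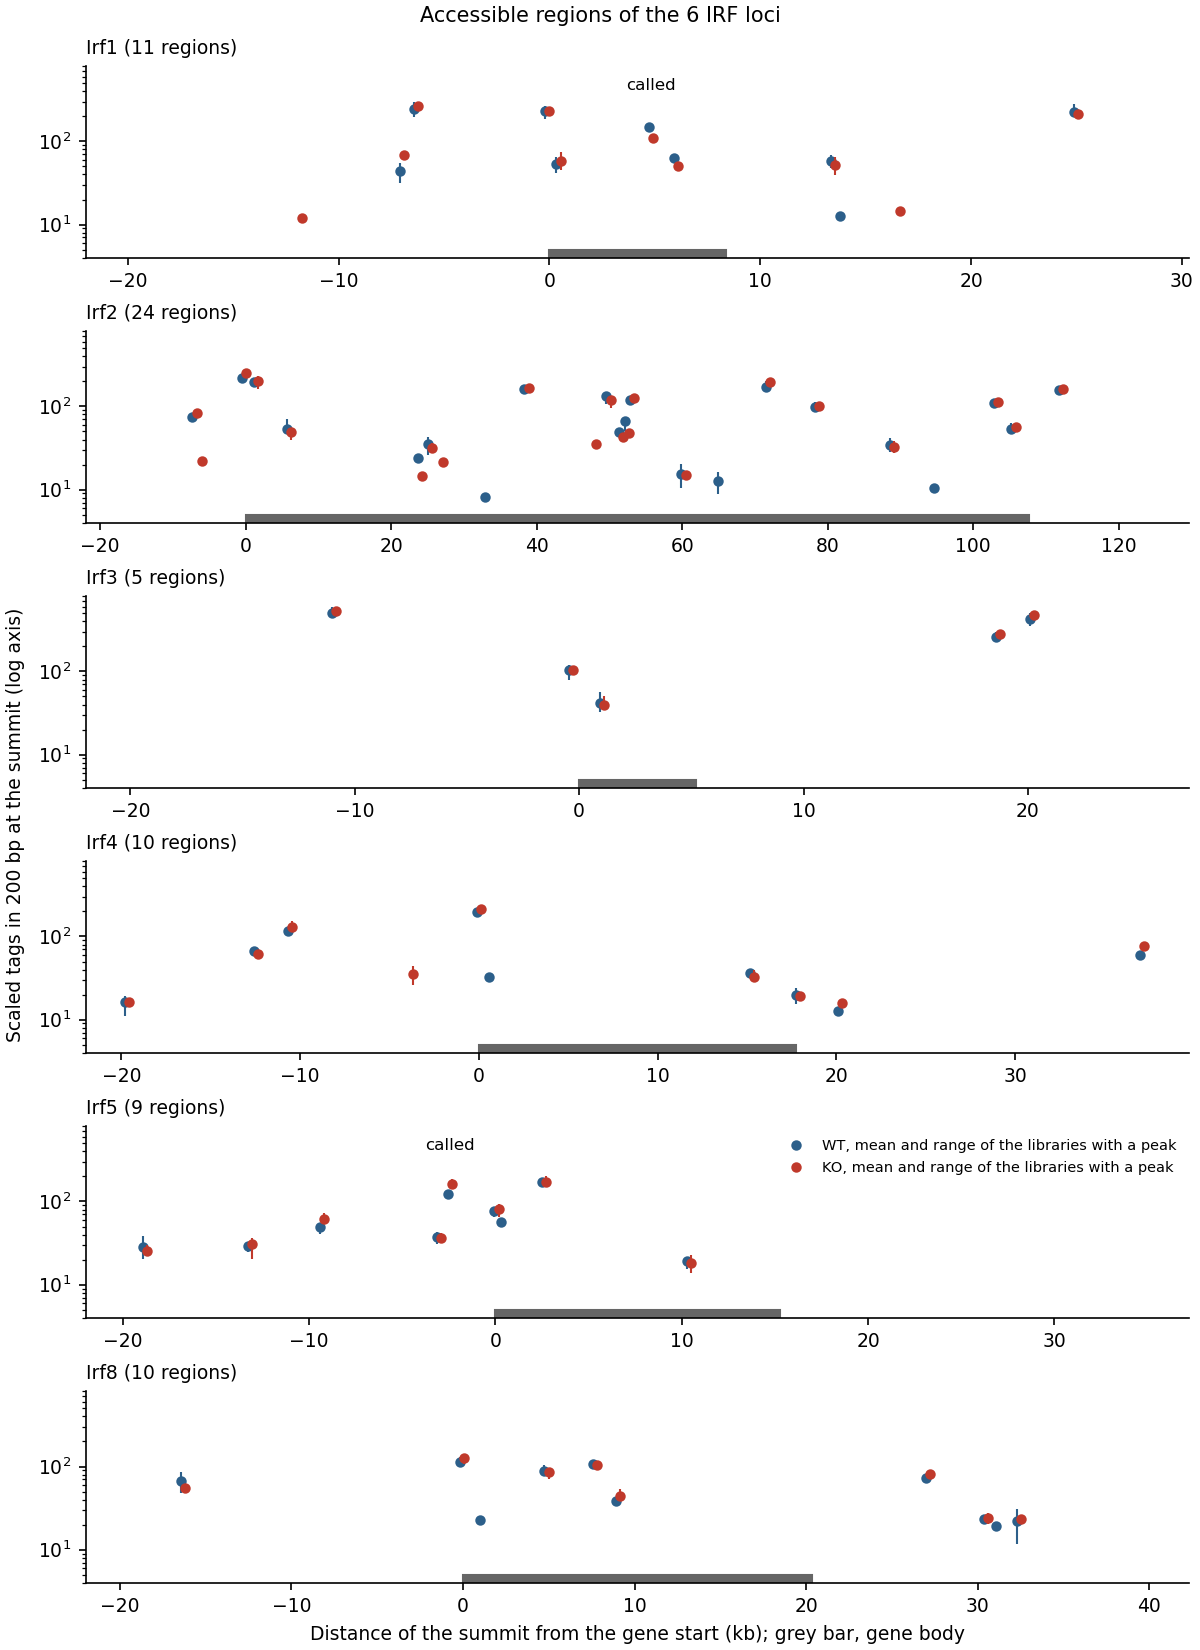
Scaled tags (log axis) of each accessible region against the distance of its summit from the gene start in kb, for the 6 IRF loci; points are means over the WT (blue) or KO (red) libraries that had a peak, vertical lines the range of those libraries, and grey bars the gene bodies. Points of both genotypes lie close together at most regions, and the 2 regions called by the test are at +4.83 kb of Irf1 and -2.46 kb of Irf5.

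The promoters of all 6 genes had a peak in all 8 libraries, and limma called none different between genotypes (1, at Irf2, had an unadjusted p under 0.05). Over the 8 libraries the promoter height was 234 ± 19.2 scaled tags (mean ± SD, n = 8) at Irf2, 233 ± 22.6 at Irf1, 206 ± 15.4 at Irf4, 171 ± 16 at Irf5, 119 ± 15.2 at Irf8 and 103 ± 13.9 at Irf3. Among 13043 promoters with a peak, these heights stood in the same order at percentiles 79.6, 79.5, 74.2, 66.2, 50.4 and 44.5. In this order only Irf5 and Irf8 were neighbours whose 8 values did not overlap, and Irf5 was the higher of the pair in 8 of 8 libraries. Irf2 was above Irf1 in 5, Irf1 above Irf4 in 6, Irf4 above Irf5 in 7 and Irf8 above Irf3 in 6 of 8 libraries, so these neighbours were not separated.

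Irf1, an interferon-induced activator, had 241, 222, 242 and 231 scaled tags at its promoter (chr11:53769694-53770174) in KO replicates 1_2, 1_3, 2 and 3 and 231, 186, 239.8 and 266 in WT replicates 1_2, 1_3, 3 and 4. The WT values lay on both sides of the KO values, and the log2 difference (KO minus WT) was 0.03 (SE 0.09, limma adjusted p = 0.86). At the promoter of Irf2, which competes with IRF1 for its sites, KO libraries had 252, 243, 246 and 261 scaled tags and WT libraries 219, 223, 211 and 214. The groups did not overlap, but the log2 difference of 0.21 (SE 0.08) did not pass the adjusted threshold (limma adjusted p = 0.0792). This region (chr8:46739318-46739887) is also the promoter of the noncoding gene Gm16675, and reads of both starts fall together.

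Irf3 encodes the factor that TBK1 activates after nucleic acid sensing. Its promoter (chr7:44997118-44998071) is shared with Bcl2l12 and had 98.6, 100, 110.5 and 102 scaled tags in KO and 78.3, 120, 95.2 and 121 in WT, with a log2 difference of 0.01 (SE 0.12, limma adjusted p = 0.966). WT was the more scattered group here and enclosed all KO values. The Irf5 product acts below MyD88 in inflammatory responses. Its tallest promoter region (chr6:29529032-29529423) lay 2.60 kb inside the gene, 53 bases before the start of a 9-exon transcript, with 154, 169, 166 and 200.4 scaled tags in KO and 176, 157, 159 and 187 in WT (log2 difference 0.02, SE 0.09, limma adjusted p = 0.933). The region at the first start of Irf5 (chr6:29526491-29526824) was lower, with 82.3 ± 13.9 scaled tags (mean ± SD) over the 4 KO and 76.6 ± 8.26 over the 4 WT libraries.

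Irf4 and Irf8 encode the PU.1-dependent members, of which IRF8 is known for its part in monocyte and dendritic cell development. The Irf4 promoter (chr13:30748973-30749507) had 210.1, 228, 225 and 199 scaled tags in KO and 209, 188, 198 and 188 in WT, with a log2 difference of 0.14 (SE 0.09, limma adjusted p = 0.303). The Irf8 promoter (chr8:120735865-120736849), which lies within the long noncoding gene Gm20388, had 143, 126, 106 and 129 in KO and 103, 116, 101 and 129.6 in WT, with a log2 difference of 0.16 (SE 0.11, limma adjusted p = 0.345). In both genes 1 or more WT values lay within the KO range, and at Irf8 the log2 difference was 0.09 without KO replicate 1_2 and 0.26 without KO replicate 2. The log2 difference was above 0 at 6 of 6 IRF promoters with a median of 0.09, beside a median of 0.10 and 76.5% above 0 over 10514 promoter regions tested, but under the 3 other scalings the differences at Irf1, Irf3 and Irf5 were just below 0.

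**Figure D2:**
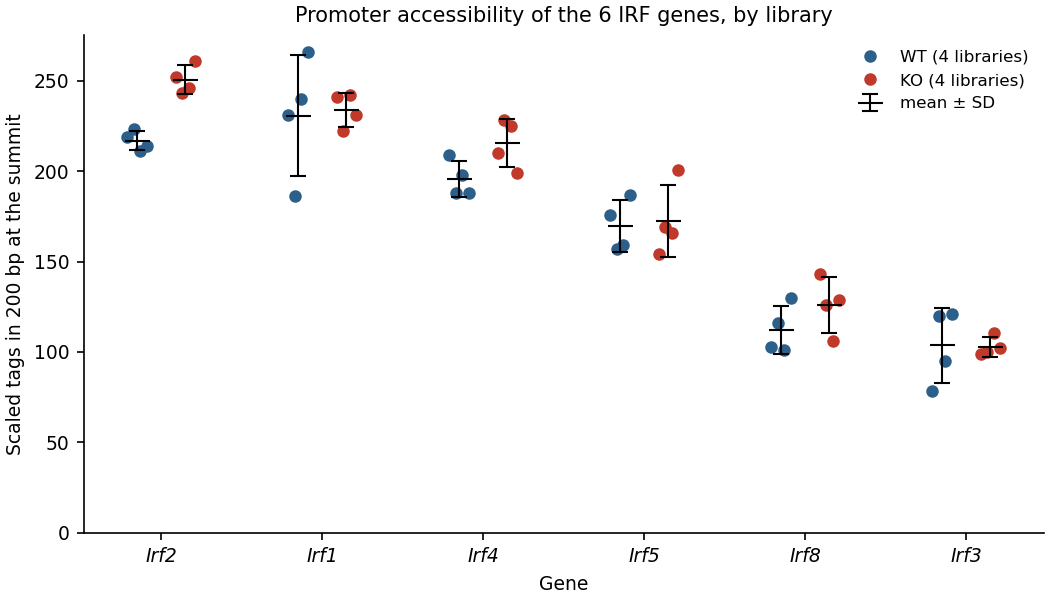
Scaled tags at the promoter of each IRF gene, ordered by mean height; each point is 1 library (blue, WT; red, KO; 4 each) and black bars are the mean ± SD of a genotype. Genotypes overlap at every gene except Irf2, where the KO libraries sit between 243 and 261 and the WT libraries between 211 and 223.

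By Pearson correlation of the scaled heights over the 8 libraries, the promoter most like that of Irf1 was that of Hinfp (r = 0.984) among 11598 promoters, followed for the other members by Slc44a1 for Irf2 (r = 0.981), Alg3 for Irf3 (r = 0.963), Vps26a for Irf4 (r = 0.988), Fam234b for Irf5 (r = 0.946) and Trub1 for Irf8 (r = 0.976). With 8 points that share libraries and depth, 5 to 153 other promoters passed an r of 0.9 for each member, so the name of the first has little weight.

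The genotypes were compared at the 45 IRF regions with a peak in all 8 libraries, in a limma fit over all 47499 such regions of the genome. It called 1 IRF region higher in KO (2.22%), beside 5.81% of all regions, and 1 lower in KO (2.22%), beside 7.03%. In bulk libraries, a region open in more of the cells and one more open in each cell cannot be told apart. The median log2 difference was 0.04 over the IRF regions and 0.04 over all regions, 29 of 45 were above 0, and 37 of 45 were under 0.2 in size. An unadjusted p under 0.05 was reached by 7 regions. No share of all regions stands beside this or other counts at that level, so they are descriptions. The scaled tags of the genotypes did not overlap at 6 of 45 regions (13.3%), beside 16.2% of all regions. The share of calls and the share of separated regions at the IRF loci were thus not above those of the genome. Over all regions 45.3% of calls were higher in KO with median scaling, 35.1% with scaling by total tags, 39.5% with quantile normalisation and 22.8% with scaling by background tags.

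**Figure D3:**
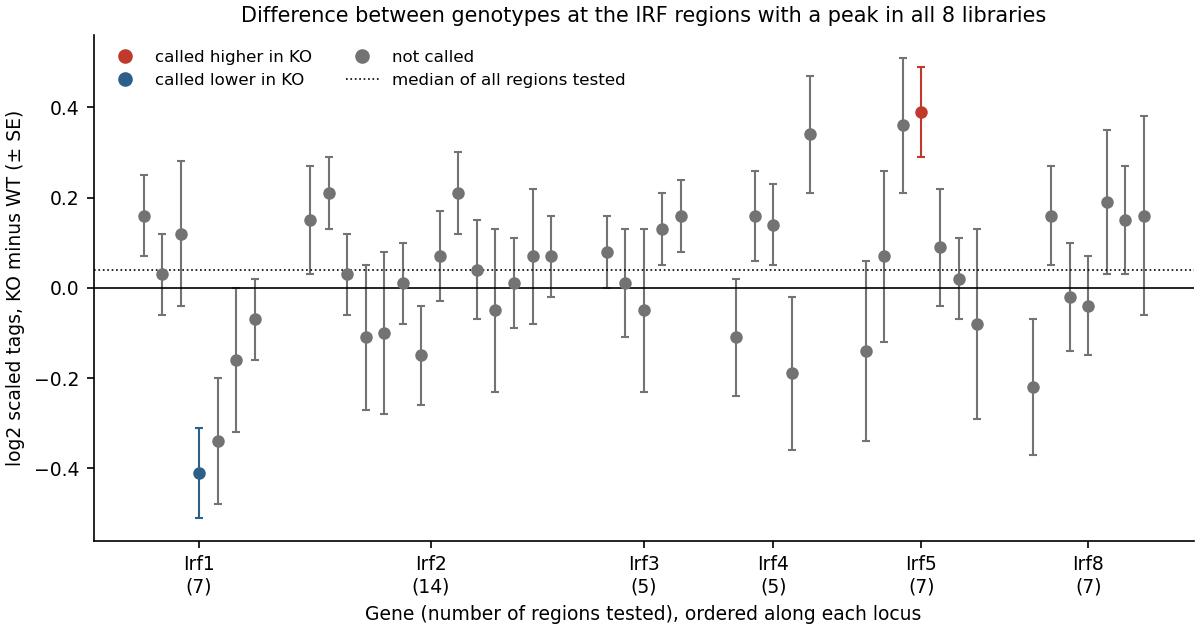
Log2 difference in scaled tags (KO minus WT) with its SE at the 45 tested IRF regions, ordered along each locus; red marks the region called higher and blue the region called lower in KO, grey those not called, and the dotted line the median of all 47499 regions. Most points lie within 0.2 of zero, and the called regions are at -0.41 in Irf1 and 0.39 in Irf5.

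The region lower in KO lay in intron 7 of Irf1, between exons that end at 53774468 and start at 53775054 (chr11:53774650-53775060). It had 119, 104, 109 and 113 scaled tags in KO replicates 1_2, 1_3, 2 and 3 and 140.3, 142, 146 and 163 in WT replicates 1_2, 1_3, 3 and 4. Every KO library was below every WT library. The means were 111 ± 6.45 and 148 ± 10.6 (SD, n = 4 each), and the log2 difference was -0.41 (SE 0.10, limma adjusted p = 0.0036). The next region of the gene, 5.99 kb from its start and over an exon, had 46.3 to 55.7 scaled tags in KO and 55.9 to 70.5 in WT, again without overlap, but its log2 difference of -0.34 (SE 0.14) did not pass (limma adjusted p = 0.118). The tallest Irf1 region, 6.34 kb upstream (chr11:53763348-53764252), had 283, 259.6, 275 and 256 in KO and 197, 223, 253 and 296 in WT, with a log2 difference of 0.16 (SE 0.09, limma adjusted p = 0.256). WT replicate 4 was the highest and WT replicate 1_2 the lowest of the 8 libraries there, and without WT replicate 4 the log2 difference was 0.26 (limma adjusted p = 0.0332) and without WT replicate 1_2 it was 0.06 (limma adjusted p = 0.753).

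The region higher in KO lay 2.46 kb upstream of Irf5 (chr6:29523964-29524634). KO libraries had 162, 147, 187 and 154 scaled tags and WT libraries 127, 131, 114 and 124, so every KO library was above every WT library. The means were 163 ± 17.3 and 124 ± 7.5 (SD, n = 4 each), and the log2 difference was 0.39 (SE 0.10, limma adjusted p = 0.0047). Another Irf5 region 9.29 kb upstream (chr6:29517142-29517559) was also without overlap, with 56.6 to 72.1 scaled tags in KO and 41.0 to 55.8 in WT, but its log2 difference of 0.36 (SE 0.15) did not pass (limma adjusted p = 0.108). The other 5 tested regions of Irf5 had log2 differences from -0.14 to 0.09. Both calls were lost when libraries were scaled by their background tags: the log2 difference was then -0.46 (limma adjusted p = 0.0794) at the Irf1 intron and 0.34 (limma adjusted p = 0.294) upstream of Irf5, 0 IRF regions passed limma and 3 had an unadjusted p under 0.05. The part of background in these differences was not tested.

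Limma called no tested region of Irf2, Irf3, Irf4 or Irf8, where 2, 0, 1 and 0 regions had an unadjusted p under 0.05. At Irf2 the region furthest from 0 besides the promoter was in intron 5 (chr8:46811103-46811703), with 191, 195, 188 and 209.9 scaled tags in KO and 200.2, 160.2, 172 and 149 in WT (log2 difference 0.21, SE 0.09, limma adjusted p = 0.131), and WT replicate 1_2 lay within the KO values. The 14 tested Irf2 regions spanned log2 differences of -0.15 to 0.21. At Irf4 a region 37.1 kb from the gene start, within the noncoding gene Gm29675 (chr13:30786103-30786515), had 79.6, 74.8, 75.5 and 75.9 in KO and 55.1, 66.3, 64.1 and 56.4 in WT. The groups did not overlap, and the log2 difference was 0.34 (SE 0.13, limma adjusted p = 0.0735).

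The tallest regions near Irf3 belonged to its neighbours. The promoter of Prmt1 (chr7:44986304-44987104) had 503 to 554 scaled tags in KO and 436 to 601 in WT, and that of Rras (chr7:45017364-45018086) 452 to 493 in KO and 356 to 500.5 in WT, with log2 differences of 0.08 (SE 0.08, limma adjusted p = 0.536) and 0.16 (SE 0.08, limma adjusted p = 0.204). At Rras the WT range enclosed the KO range, and without WT replicate 4 the log2 difference was 0.23 (limma adjusted p = 0.0288) and without WT replicate 1_3 it was 0.08 (limma adjusted p = 0.557). At Irf8 the region 16.3 kb upstream (chr8:120719703-120720269) had 56.7, 50.5, 55.2 and 60.5 in KO and 48.4, 60.4, 70.5 and 86.8 in WT (log2 difference -0.22, SE 0.15, limma adjusted p = 0.361). The WT libraries were spread around the KO values there, and the log2 difference was -0.37 without WT replicate 1_2 and -0.09 without WT replicate 4.

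Counting libraries with a peak, 0 IRF regions were found in every WT library alone and 0 in every KO library alone, beside 0.820% and 0.285% of the 72711 regions found in 2 or more libraries. Among the 60 IRF regions found in 2 or more libraries, 2 (3.33%) had a peak in at least 3 fewer KO than WT libraries, beside 3.46% of all, and 1 (1.67%) in at least 3 fewer WT than KO libraries, beside 1.20%. All 3 were low beside the median of 67.8 scaled tags over the 47499 tested regions. The Irf2 intron 2 region (chr8:46804727-46805068) had 12.6 (replicate 1_2), 8.94 (1_3) and 16.5 (3) scaled tags in WT, and neither WT replicate 4 nor any KO library had a peak there. In its sequence above, 5 DR1 matches stand on the plus strand at distances of 17, 51, 17 and 34 bases, all multiples of 17, and 2 of the 82424 regions had 5 or more matches. These letters form a tandem repeat, and its part in the occupancy was not tested.

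The other 2 regions that differed by 3 or more libraries were at Irf4, a few kilobases apart. By the shares above, such regions were about as frequent at the IRF loci as over the genome. The one 3.81 kb upstream (chr13:30745205-30745551) had 36.8 (replicate 1_2), 44.5 (1_3) and 26.1 (3) scaled tags in KO, and neither KO replicate 2 nor any WT library had a peak there. The one in intron 1, 0.708 kb from the start (chr13:30749811-30750034), had 29.0 (replicate 1_2), 35.8 (1_3) and 31.6 (4) in WT, and neither WT replicate 3 nor any KO library had a peak there. A difference in occupancy at single regions of this kind was not tested, since 4 against 4 libraries could not pass a correction over the genome.

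**Figure D4:**
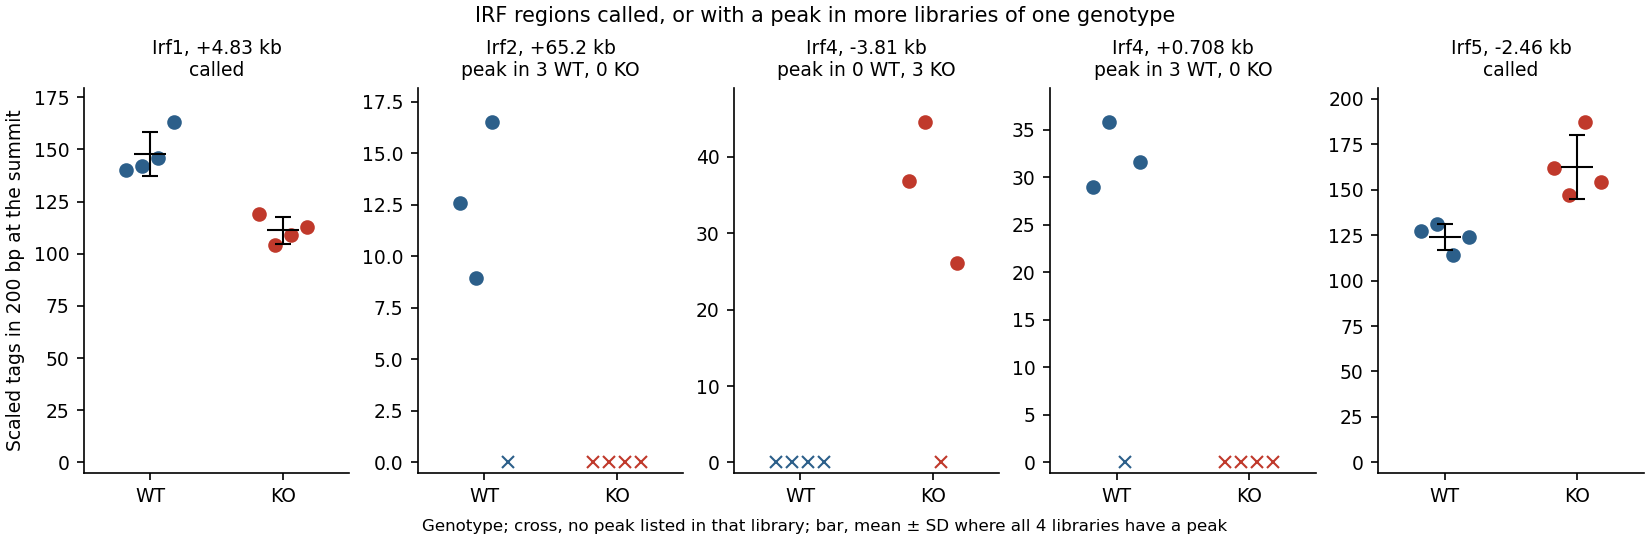
Scaled tags in each library at the 2 called IRF regions and at the 3 with a peak in at least 3 more libraries of one genotype; points are libraries (blue, WT; red, KO), crosses mark libraries without a listed peak and are not measured zeros, and black bars are the mean ± SD where all 4 libraries had a peak. At the Irf1 intron the KO libraries sit between 104 and 119 and the WT libraries between 140.3 and 163, and upstream of Irf5 the KO libraries sit between 147 and 187 and the WT libraries between 114 and 131.

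Genes that work with the IRF proteins were taken from a list, of which 29 are described here, with 266 regions in the same windows, of which 181 were tested. Of these, 9 (4.97%) were called higher in KO and 8 (4.42%) lower, beside 5.81% and 7.03% of all regions, and none was specific to a genotype. Interferon receptors and the signalling genes below them (8 genes) had 8 of 55 regions called higher (14.5%, beside 5.81% of all regions) and 1 lower (1.82%, beside 7.03%), at Jak1. Those higher were at Ifngr1 and Jak1 (2 each), Jak2 (1) and Ifnar1, Ifnar2 and Ifngr2 (1 each), with limma adjusted p from 0.00441 to 0.0468. Ifnar1, Ifnar2 and Ifngr2 lie close together on chromosome 16, so the calls are not from 8 separate loci. The promoter of Jak2, which with Jak1 encodes the kinases of the interferon gamma receptor, had a mean of 148 scaled tags in KO and 116 in WT (log2 difference 0.35, SE 0.11, limma adjusted p = 0.0187). The promoter of Ifngr2, a chain of that receptor, had 261 and 219 (log2 difference 0.25, SE 0.09, limma adjusted p = 0.0468).

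The DNA-binding partners (Spi1, Spib, Batf, Batf3 and Ikzf1) had 0 of 40 tested regions called higher by limma (5 at an unadjusted p under 0.05) and 5 lower (12.5%, beside 7.03% of all regions). Of the latter 4 were at Ikzf1, which encodes the lymphoid and myeloid factor Ikaros, with log2 differences from -0.77 to -0.25. The fifth was at Spi1, the gene of PU.1, 27.6 kb from its start (chr2:91109725-91110387), where the mean was 67.5 scaled tags in KO and 111 in WT (log2 difference -0.70, SE 0.12, limma adjusted p = 6.49e-05). The 11 activators of IRF3 and IRF5 had 1 of 60 regions higher, at Irak4, and 1 lower, at Tbk1, or 1.67% each way beside 5.81% and 7.03% of all regions. Irf7, Irf9 and the IRF2-binding genes had 0 of 26 called higher by limma (6 at an unadjusted p under 0.05) and 1 lower (3.85%), near Irf2bp2. Of 28 promoters tested in the list, 2 were called, both higher in KO, and the promoters of Irf7 (log2 difference 0.29, SE 0.11, limma adjusted p = 0.0869) and Irf9 (0.21, SE 0.10, limma adjusted p = 0.162) were not. Over these 28 the median was 0.09 and 82.1% were above 0, beside 0.10 and 76.5% over all promoter regions tested. The share of calls among all promoters is not given here, and these calls are under median scaling only. With scaling by background tags, 570 regions of the genome were called higher in KO, beside 2759 with median scaling.

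**Figure D5:**
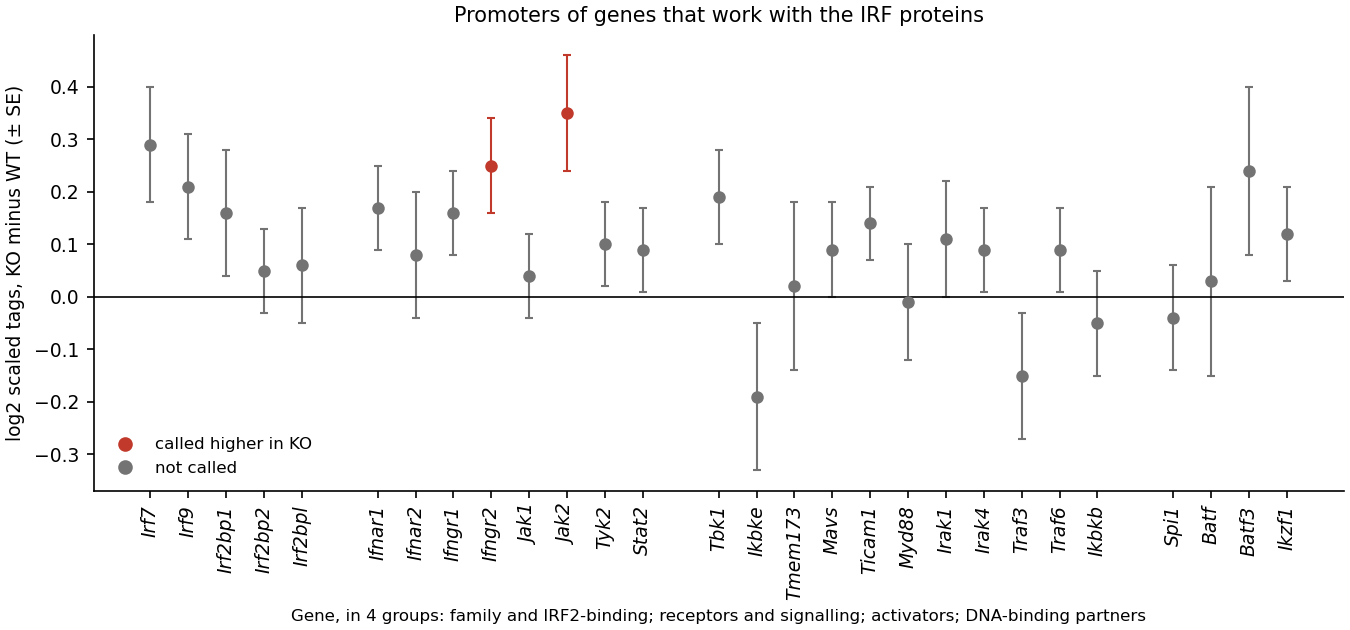
Log2 difference in scaled tags (KO minus WT) with its SE at the promoters of 28 genes that work with the IRF proteins, in 4 groups; red marks those called higher in KO and grey those not called. Jak2 and Ifngr2 are the 2 called, at 0.35 and 0.25.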

How the data were processed

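AMs of 4 KO and 4 WT samples were profiled by ATAC-seq. According to the methods of the study, the authors used Cutadapt for trimming and Bowtie2 for alignment to mm10, dropped duplicates, extended reads to 200 bp around the transposase cut and called peaks per library with MACS3 at a q-value of 0.05, which keeps a region in a deeper library at a smaller enrichment. The deposited lists give a fold (the ratio of summit pileup to background), −log10 p-value and −log10 q-value, a score and a summit offset. The score deposited by the authors was not used. The authors tested counts with edgeR, which needs counts not analysed here.

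The tags at a summit were derived from fold and −log10 p under the Poisson model, and whole tags gave back the p-value within a relative 1e-05 in 100% of peaks of every library. The lists were not made for comparing such tags between libraries. Peaks sharing a base were merged. log2(tags + 0.5) was centred on each library's median over regions with a peak in all 8 libraries and compared with limma 3.58.1 (trended prior, two-sided, Benjamini-Hochberg adjusted p under 0.05), checked on simulated tags. Scalings, thresholds and lists, and the members themselves, were chosen with earlier results of these data known.

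Regions named with values were each member's tallest promoter region (summit within 1 kb of a coding start), called regions, regions whose number of libraries with a peak differed by 3 or more, and each member's tallest and most different tested region. Further regions whose groups did not overlap were named after their values were seen. From the lists of related genes and cell type markers, 3 genes are not reported here and were left out of the counts. Alternatives were other scalings, pseudocounts, filters, merging rules, flanks, blocks and leaving out libraries. For the replicate numbers shared by the genotypes (1_2, 1_3 and 3), deviations correlated at 0.06, 0.12 and 0.04. Pairs of unlike number ran from -0.07 to 0.03, all below the same-numbered pairs. Correlations by number were thus higher but weak, and the main fit had no block. The fit with a replicate block is given below.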

Additional observations from a re-analysis of the deposited data

Results flagged for a closer look

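Each genotype's 4 libraries were checked for a single library apart from the rest, at the promoters and other named regions and for the number of regions with a peak at each locus. Of 40 such groups, 4 had a library apart. The chance rate of about 1 in 20, or 2.00 groups, assumes continuous values. All 4 are counts of regions in which the other 3 libraries were tied, so a difference of 1 is enough. That rate therefore does not apply to them, and nothing is drawn from setting 4 beside it. At Irf1, KO replicate 1_2 had a peak at 7 regions, and the other KO libraries at 8. At Irf5, KO replicate 1_2 had a peak at 7 regions, and the others at 8. At Irf8, WT replicate 1_3 had a peak at 7 regions, and the other WT libraries at 8. At Irf4, KO replicate 2 had a peak at 5 regions, and the other KO libraries at 8, and the region 3.81 kb upstream of the gene was among those without a peak in it. KO replicate 2 had 1.38 background tags per 200 bp, between the other KO libraries (1.12 to 1.86).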

How the results depend on the processing

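The count of 2 called IRF regions stayed at 2 under 15 of 18 other fits or filters and became 0 with scaling by background tags, which also moved all regions called from 6096 to 2501. It became 6 of 45 with the replicate block, 5 higher and 1 lower in KO. Calls over all regions rose from 6096 to 6883 of 47499 in that fit, 3600 higher and 3283 lower. Same-numbered samples correlated only weakly, and KO replicate 2 and WT replicate 4 have no partner, so this fit sets both aside. The added calls were the Irf1 region 6.34 kb upstream, the Irf8 promoter and the Scaf1 and Rras promoters near Irf3. Leaving out each library in turn gave 2 to 4 calls, with 4 without WT replicate 4, where 6408 of 48609 regions of the genome were called. With the gene body alone 1 region was called, and 27 had a peak in all 8 libraries. With a 100 kb flank 8 were called, 112 had a peak in all 8 libraries and 3 were specific to a genotype, by the wider window itself. Regions specific to a genotype numbered 0 to 1 when each library was left out, with 1 without KO replicate 2, WT replicate 3 or WT replicate 4. The Irf1 intron kept its sign in 18 of 18 alternatives (log2 -0.46 to -0.35) and its call in 17 (limma adjusted p 0.00122 to 0.0794), and the Irf5 upstream region kept its sign in 18 of 18 (0.32 to 0.43) and its call in 17 (0.0047 to 0.294). Promoter differences near 0 changed sign: at Irf1 -0.0013 by total tags, -0.02 by background tags, -0.02 by quantiles, -0.01 with replicates 1_2 and 1_3 averaged, and -0.06 to 0.10 with 1 library left out; at Irf3 -0.02 by total tags, -0.04 by background tags, -0.01 by quantiles, and -0.12 to 0.09 with 1 left out; at Irf5 -0.02 by total tags, -0.04 by background tags, -0.02 by quantiles, and -0.06 to 0.06 with 1 left out. None of these was called under any alternative. Read totals were not used and depth entered only as background tags. The paper gives an average read depth and sequencing quality metrics, which were not used.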

Other observations

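Between 20 and 100 kb from the IRF genes lay 102 further regions. Of the 93 found in 2 or more libraries, 3 (3.23%, beside 0.820% over the genome) had a peak in all 4 WT and no KO library. All 3 were low beside the median of 67.8 scaled tags over the tested regions of the genome, and this difference in occupancy was not tested. The nearest lay 24.9 kb before Irf8 (chr8:120711182-120711627), with 12.6, 11.2, 28.4 and 23.7 scaled tags in WT replicates 1_2, 1_3, 3 and 4. The others lay 59.0 kb before Irf2 (chr8:46680695-46680972, 11.3 to 14.6 scaled tags) and 96.3 kb before Irf3 (chr7:44901224-44901734, 11.9 to 14.6), the latter 5.07 kb from the start of Fuz. In the same span 67 regions were tested by limma, of which 5 (7.46%, beside 5.81% of all regions) were called higher in KO and 1 (1.49%, beside 7.03%) lower. The largest difference among them was 40.5 kb after Irf1 (chr11:53818669-53819115), where KO libraries had 26.9, 33.3, 29.3 and 24.9 scaled tags and WT libraries 11.6, 9.69, 12.8 and 14.7 (log2 difference 1.21, SE 0.21, limma adjusted p = 2.98e-05). A region 73.6 kb after Irf1 (chr11:53851820-53852158) was also higher in KO (0.68, SE 0.20, limma adjusted p = 0.0193), and lies 1.92 kb from the start of Gm12216. A region 51.2 kb before Irf4 (chr13:30697798-30698248) had 98.0 to 106 scaled tags in KO and 75.3 to 78.9 in WT (0.39, SE 0.11, limma adjusted p = 0.0154). The region called lower lay 88.4 kb after Irf3 (chr7:45091073-45091463) and 0.963 kb from the start of Rcn3, with 52.8, 64.7, 59.7 and 45.1 scaled tags in KO and 81.3, 74.5, 83.3 and 92.4 in WT (-0.58, SE 0.14, limma adjusted p = 0.00230). Which gene these distant regions act on is not given by these data.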
